A study of Mus musculus with 3 samples.

Results

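The Hox cluster genes were read for methylated DNA in the epididymal fat of mice on 3 diets. They were taken as the protein-coding genes whose symbol is Hoxa, Hoxb, Hoxc or Hoxd followed by digits only, which gave 39 of 21887 protein-coding genes in the RefSeq gene table. There were 11 genes in the Hoxa cluster (chr6:52155367-52260880), 10 in the Hoxb cluster (chr11:96194316-96368254), 9 in the Hoxc cluster (chr15:102921131-103036856) and 9 in the Hoxd cluster (chr2:74668225-74765142), all in mm10. Male C57BL/6J mice entered the study at 6 weeks of age and spent 10 weeks on 1 of 3 diets. The normal diet (ND) drew about 10% of its energy from fat and the high-fat diet (HFD) about 60%. The third group (FAD) ate the high-fat diet and drank water with folic acid at 20 μg/mL. Methylated DNA was enriched with an antibody and sequenced (MeDIP-seq), with 1 library per diet, so that no difference between diets has a replicate check and no test between diets was possible.

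Hox genes encode homeodomain transcription factors that give cells their position along the body axis, and their order along each cluster follows the order of the body regions in which they act. Low-numbered genes act towards the head and high-numbered genes towards the tail and the ends of the limbs. Adult fat depots keep a Hox expression pattern that reflects where in the body they formed. Hox genes that are silent are commonly held by Polycomb proteins, and the CpG-rich DNA around their starts is commonly low in DNA methylation.

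Promoter sequence was shown for the windows on which the results turn. RefSeq gave windows from 250 bp before to 50 bp after a gene start (GRCm38.p6, the assembly of mm10) for 22 of the 39 Hox genes, 24 windows in all, and for 16 other genes inside the clusters. No Hox window overlapped a peak in any of the 3 lists, whereas 3 windows of long non-coding RNA genes in the Hoxa cluster did. This leaves out the Hox genes without a window. For 1 of them, Hoxb3, an HFD peak of 52.6 (chr11:96306794-96307201) lay over the 5′ end of the record. No ND or FAD peak lay there. Below, CG dinucleotides, the sites of DNA methylation, are in capitals. The 3 windows with a peak come first. Hoxb1 follows because its window lay closest to a peak among the Hox genes, and Hoxd1 as the gene of the same paralog number with no peak within 2000 bp.
Gm15050 (chr6:52172631-52172930, plus strand): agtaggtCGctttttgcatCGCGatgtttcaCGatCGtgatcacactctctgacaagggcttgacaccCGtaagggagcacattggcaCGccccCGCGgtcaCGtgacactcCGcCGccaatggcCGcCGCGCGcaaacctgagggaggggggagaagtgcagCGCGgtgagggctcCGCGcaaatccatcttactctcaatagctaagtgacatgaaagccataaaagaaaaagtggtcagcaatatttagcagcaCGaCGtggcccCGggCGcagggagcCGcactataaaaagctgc
5730596B20Rik (chr6:52176905-52177204, plus strand): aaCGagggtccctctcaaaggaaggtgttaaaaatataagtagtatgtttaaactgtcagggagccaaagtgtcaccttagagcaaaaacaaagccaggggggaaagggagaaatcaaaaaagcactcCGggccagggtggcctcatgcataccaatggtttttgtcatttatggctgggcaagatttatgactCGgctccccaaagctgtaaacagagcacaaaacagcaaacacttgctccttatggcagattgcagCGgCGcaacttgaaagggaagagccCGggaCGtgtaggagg
LOC115490410 (chr6:52242985-52243284, plus strand): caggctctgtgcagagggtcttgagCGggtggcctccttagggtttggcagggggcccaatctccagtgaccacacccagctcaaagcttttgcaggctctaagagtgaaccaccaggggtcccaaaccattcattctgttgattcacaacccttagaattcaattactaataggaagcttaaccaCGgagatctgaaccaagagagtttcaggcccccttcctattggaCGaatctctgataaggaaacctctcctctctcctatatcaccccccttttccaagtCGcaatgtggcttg
Hoxb1 (chr11:96365508-96365807, plus strand): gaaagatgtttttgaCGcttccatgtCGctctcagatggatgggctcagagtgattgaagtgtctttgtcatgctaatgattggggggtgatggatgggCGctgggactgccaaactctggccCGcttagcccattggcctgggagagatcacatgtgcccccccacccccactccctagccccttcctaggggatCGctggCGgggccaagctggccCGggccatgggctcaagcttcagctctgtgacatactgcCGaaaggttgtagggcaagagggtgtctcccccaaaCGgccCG
Hoxd1 (chr2:74762730-74763029, plus strand): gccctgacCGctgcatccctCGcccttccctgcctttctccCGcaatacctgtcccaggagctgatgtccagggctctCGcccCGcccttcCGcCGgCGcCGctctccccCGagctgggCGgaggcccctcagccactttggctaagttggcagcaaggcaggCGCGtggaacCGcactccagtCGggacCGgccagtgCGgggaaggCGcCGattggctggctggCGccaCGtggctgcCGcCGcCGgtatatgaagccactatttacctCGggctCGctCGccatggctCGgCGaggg

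The Gm15050 window held 25 CG dinucleotides and lay wholly inside a peak in ND (score 68.55) and in HFD (score 60.67). The windows of 5730596B20Rik and LOC115490410, with 7 and 4 CG dinucleotides, were covered over 114 and 138 bp by ND peaks that scored 61.75 and 50.46, and by no HFD or FAD peak. These 3 RNA genes lie inside or beside Hoxa3 and Hoxa11 and are read on the plus strand, while all 9 Hoxa genes with a window are read on the minus strand. The score is the authors' own value for each peak, never below 50. No source used here states the scale, so scores rank the peaks within a list, and those of different lists are set side by side without scaling. Of the 16 other genes with a window, 3 were covered by an ND peak, 1 by an HFD peak and 0 by an FAD peak, where windows of all 27025 genes with an entry gave 3.84%, 5.43% and 3.3%.

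The Hoxb1 window held 10 CG dinucleotides and the Hoxd1 window 29. Hoxb1, which specifies a segment of the hindbrain, had a peak in every list just before its window. It ended 222 bp short of the window in ND, 123 bp short in HFD and 100 bp short in FAD. The peak nearest to the Hoxd1 window lay 6383 bp away in HFD, 6421 bp in FAD and 11695 bp in ND. Over all 24 Hox windows the number of CG dinucleotides ran from 4 to 45 with a median of 14.5, against a median of 13 over 21263 windows of protein-coding genes, of which 95.4% held at least 1. Any overlap with a peak was called in 2.9% of 17492 protein-coding genes with a window in ND, 3.9% in HFD and 2.46% in FAD, so that 0 of 22 Hox genes was close to this background. Among protein-coding windows with 20 to 29 CG dinucleotides, where 9 Hox windows fell, the share with an ND peak was 1.19%, with an HFD peak 1.38% and with an FAD peak 1.1%. Windows with 5 to 9, where 4 Hox windows fell, gave 6.55%, 9.05% and 5.31%. Those with 10 to 14, where 5 Hox windows fell, gave 5.55%, 6.30% and 4.79%. The remaining Hox windows fell where the shares ran from 0.24 to 2.70%. The letters TGATNNAT, the form of a joint binding site of Hox proteins and TALE cofactors, were searched on both strands and stood in 4 of the 24 Hox windows (Hoxb1, Hoxa2, Hoxb8 and 1 of the Hoxd11 windows) and in 7.45% of all protein-coding windows.

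Peaks were next counted within each gene record plus 2000 bp on each side, with an overlap of 1 bp. Of 39 Hox genes, 17 had an ND peak (43.6%, Wilson 95% interval 29.3 to 59.0%), 19 an HFD peak (48.7%, 33.9 to 63.8%) and 19 an FAD peak (48.7%, 33.9 to 63.8%). The background over all 21887 protein-coding genes was 64.5% in ND, 71.4% in HFD and 61.9% in FAD. Over the 14013 genes with records in the length range of the Hox genes it was 61.5%, 70.3% and 58%. Hox records are short, with a median of 3737 bp against 17169 bp over protein-coding genes. Among 3553 protein-coding genes with records between the lower and upper quartile of Hox length, 43.2% had an ND peak, 51.6% an HFD peak and 39% an FAD peak. The 19 Hox genes in that range gave 10 genes in each list (52.6%, 31.7 to 72.7%). Hox genes thus lay below the background of all genes and of the wide length range, but in FAD the interval included both backgrounds. Of these 19 genes 52.6% had a peak, where 39 to 51.6% of genes between the quartiles did. The latter comparison was added after the values were seen and leaves out the other Hox genes. Intervals here and below cover counting error only, and neighbouring Hox windows overlap, so that 10 of the 42 regions described below lay in more than 1 window.

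**Figure D1:**
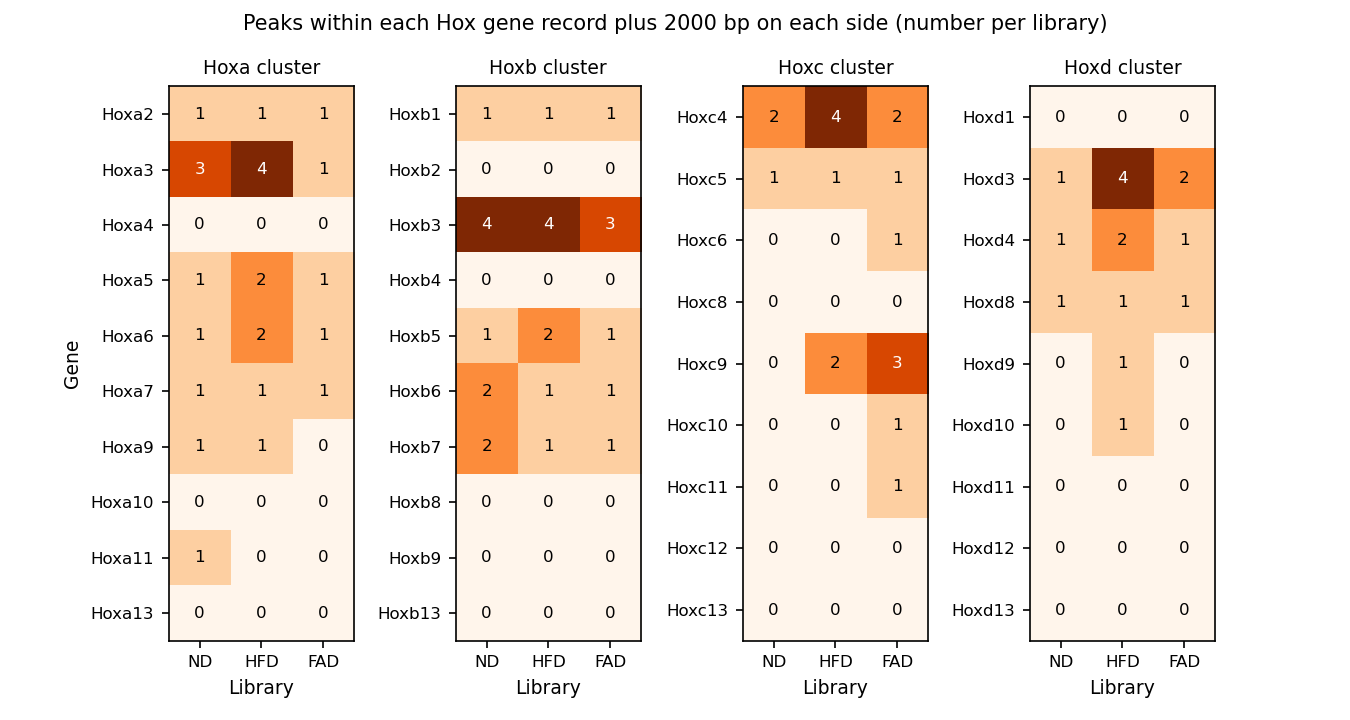
Number of peaks in each Hox gene record plus 2000 bp on each side (rows: genes by paralog number, columns: ND, HFD and FAD libraries, colour and digit: number of peaks). Counts run from 0 to 4, and 15 genes have a peak in every list; not every gene without a peak is drawn.

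The same 15 genes carried a peak in every list: Hoxa2, Hoxa3, Hoxa5, Hoxa6, Hoxa7, Hoxb1, Hoxb3, Hoxb5, Hoxb6, Hoxb7, Hoxc4, Hoxc5, Hoxd3, Hoxd4 and Hoxd8. All have paralog numbers from 1 to 8. They made up 38.5% of the Hox genes, where 57.3% of protein-coding genes had a peak in every list. No peak was listed in any library for 16 genes (41.0%, against 25.7% of protein-coding genes and 26% of those in the length range of the Hox genes), among them Hoxa4, Hoxa10, Hoxa13, Hoxb2, Hoxb4, Hoxb8, Hoxb9, Hoxb13, Hoxc8, Hoxc12, Hoxc13, Hoxd1, Hoxd11, Hoxd12 and Hoxd13. The shares of 38.5% and 41.0% have no counterpart here for genes between the quartiles of Hox length. The remaining 8 genes differed between libraries.

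Genes were next split by paralog number. The split was not among the planned comparisons. Its cut matches the range of the 15 genes named above, so it is no independent check. Of the 23 genes of paralog groups 1 to 8, 15 had a peak in ND (65.2%, 44.9 to 81.2%), 15 in HFD and 16 in FAD (69.6%, 49.1 to 84.4%). Of the 16 genes of groups 9 to 13, the counts were 2 (12.5%, 3.5 to 36.0%), 4 (25%, 10.2 to 49.5%) and 3 (18.8%, 6.59 to 43.0%). The share of groups 1 to 8 was near that of all protein-coding genes (64.5%, 71.4% and 61.9%), and groups 9 to 13 lay below it. Genes between the quartiles of Hox length gave 43.2%, 51.6% and 39%. Median record length was 3737 bp in the first set and 3990 bp in the second. The longest records, of Hoxa3 (44009 bp), Hoxb3 (40830 bp), Hoxd3 (36279 bp), Hoxc4 (18760 bp) and Hoxc6 (13657 bp), were all in the first set. In the second set the longest was that of Hoxd10 (10834 bp). The part of record length in this contrast was not tested.

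Genes that pattern the hindbrain and the throat region came first along the axis. Hoxa2, which patterns the second pharyngeal arch, held a peak in its record with a score of 56.05 in ND, 185 in HFD and 62.8 in FAD. That peak stood above 7.6% of the ND list, 78.3% of the HFD list and 16.3% of the FAD list. Hoxb1 had the second highest score of the clusters in HFD (281) and a score of 185 in ND and 144 in FAD, all from the region before its start at chr11:96364505-96365407. Hoxa3 and Hoxb3, which act in the throat and the hindbrain, have long records of 44009 and 40830 bp and held 3, 4 and 1 peaks and 4, 4 and 3 peaks in ND, HFD and FAD. Hoxd3, with a record of 36279 bp, held 1, 4 and 2. Hoxb2 and Hoxd1 had none within 2000 bp.

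The genes of groups 4 to 8, which act in the neck and trunk, included the one next to the highest-scoring region. The region chr6:52219800-52221289, 1227 bp before the 5′ end of Hoxa7, scored 191 in ND, 288 in HFD and 198 in FAD, and in each list this was the highest score of all Hox cluster peaks. Its peaks were 1398, 1313 and 1070 bp wide, where the median width was 507, 587 and 447 bp over the ND, HFD and FAD lists. The region chr6:52205337-52207041, inside Hoxa6 and 750 bp before the 5′ end of Hoxa5, scored 155, 207 and 176 with widths of 1018, 1705 and 1559 bp. It counts for Hoxa3, Hoxa5 and Hoxa6 at once.

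In the Hoxb cluster the region chr11:96288989-96289851, inside Hoxb7, scored 166 in ND, 267 in HFD and 117 in FAD. The region chr11:96300524-96301334, inside Hoxb6, scored 125, 169.6 and 126. Hoxb5 shared a peak of 96.6, 83.8 and 83.1 between its own record and the window of Hoxb3. Hoxb4, which lies inside the Hoxb3 record and acts in blood stem cells, had no peak within 2000 bp. Its nearest peaks lay 2335 bp from the window in ND, 9065 bp in HFD and 3415 bp in FAD.

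In the Hoxc and Hoxd clusters the peaks common to all lists were few. The region chr15:103018520-103019286 lay 423 bp inside the Hoxc4 record from its 5′ end. It scored 76.35 in ND, 111 in HFD and 122 in FAD, and it counts for Hoxc5 too. The promoter window given for Hoxc4 lay elsewhere in the record, at chr15:103034145-103034444. A second region in Hoxc4, chr15:103030085-103030892, scored 140 in ND, 83.9 in HFD and 55.8 in FAD. Its ND peak spanned 291 bp, and 10% of ND peaks were narrower than 323 bp. In Hoxd4 the region chr2:74723205-74723901 scored 109, 113 and 124. The region before Hoxd8 (chr2:74702832-74704108), 507 bp from its 5′ end, scored 61.6, 107 and 90.6.

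Long stretches at the high-numbered ends held no peak in any list. From chr2:74612341 to chr2:74695947 no peak was listed over 83.6 kb, which contains Hoxd10, Hoxd11, Hoxd12 and Hoxd13, the genes of the forearm, wrist and digits. The window of Hoxd10 reaches past its end to an HFD peak. Stretches at least this long made up 11.8% of the autosomal DNA between peaks. The stretch chr15:102891755-102947032 (55.3 kb) contains Hoxc12 and Hoxc13, a gene of hair and nail, and chr11:96155173-96212277 (57.1 kb) contains Hoxb13. Hoxa13, a gene of digits and the urogenital tract, stood in a stretch of 42.4 kb. Stretches as long as these 3 made up from 23.7 to 35.0% of the autosomal DNA between peaks, and assembly gaps were not removed from that sum. Such stretches were not particular to the high-numbered ends. Hoxd1, at the other end of its cluster, stood in a stretch of 39.1 kb (chr2:74756347-74795464). Hoxb8 and Hoxb9 stood in 1 of 39.6 kb (chr11:96249388-96288988).

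Counted once each, and over each cluster with 2000 bp on each side, 21 ND, 30 HFD and 24 FAD peaks lay in 508097 bp of Hox cluster DNA. Joined over the lists, these peaks made 42 regions, of which 27 overlapped a Hox gene record, 8 lay within 2000 bp of one only and 7 lay outside all Hox windows. Peak density was 4.13 per 100 kb in ND (exact Poisson 95% interval 2.56 to 6.32), 5.90 in HFD (3.98 to 8.43) and 4.72 in FAD (3.03 to 7.03). On the 19 autosomes the density was 3.90, 5.29 and 3.67 per 100 kb, inside each of these intervals. In 500 kb on each side of the clusters it was 4.62, 7.38 and 4.73. The ratio of cluster to flank was 0.894 in ND (0.540 to 1.41), 0.801 in HFD (0.531 to 1.17) and 1.0 in FAD (0.625 to 1.53), so that no difference between clusters and flanks was detectable at these counts. Read depth is unknown, and no peak in a list says only that nothing passed the caller's threshold there.

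**Figure D2:**
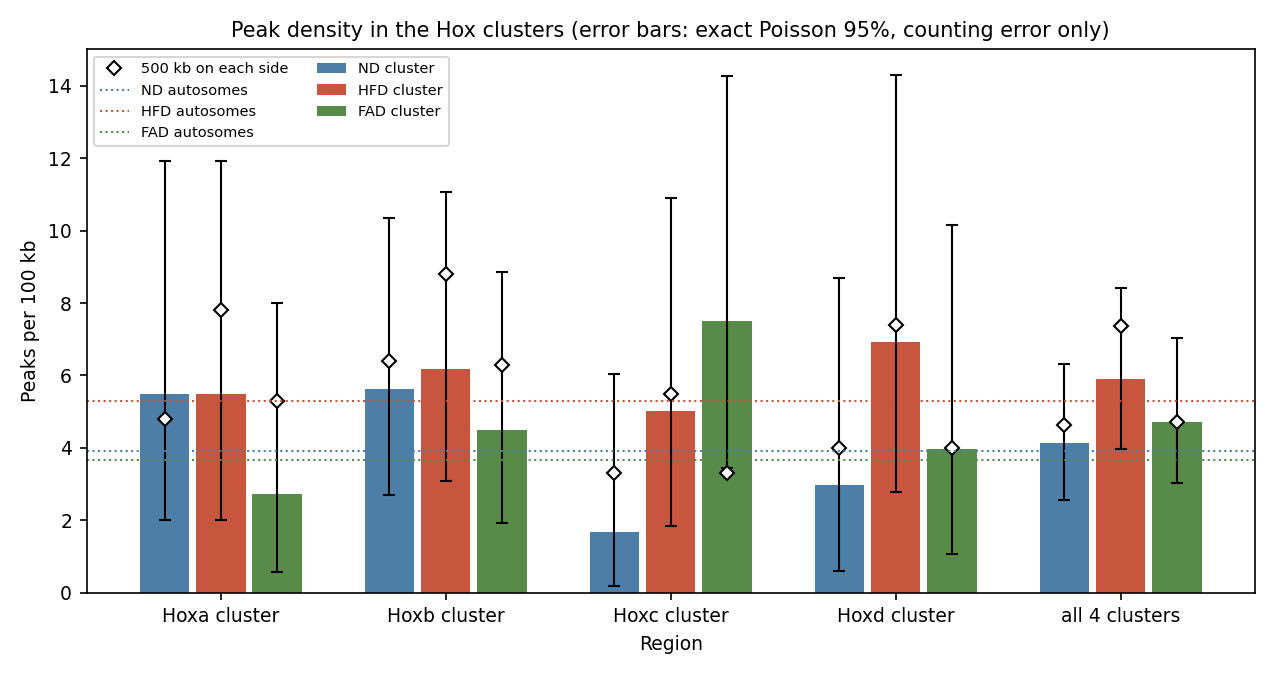
Peaks per 100 kb in each Hox cluster and in all 4 (bars: ND, HFD and FAD libraries, error bars: exact Poisson 95% intervals for counting error, diamonds: 500 kb on each side, dotted lines: autosomes). FAD peaks in the Hoxc cluster stand at 7.52 per 100 kb with flanks at 3.30, and ND peaks there at 1.67 with the same flanks.

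HFD was compared with ND to see which Hox regions differed with dietary fat. The clusters held 30 HFD and 21 ND peaks, a ratio of 1.43 (exact binomial 95% interval 0.79 to 2.63), where the whole lists gave 1.33 and the flanks 1.59. The ratio was 1.0 in Hoxa, 1.1 in Hoxb, 3.0 in Hoxc and 2.33 in Hoxd, and each interval included 1.33. Hoxc9, Hoxd9 and Hoxd10 had a peak in HFD and none in ND, 7.69% of Hox genes beside 8.81% of protein-coding genes and 11.3% of those in the Hox length range. Hoxd9 and Hoxd10 had a peak in HFD and in neither other list, 5.13% beside 5.69%. Hoxa11 was the 1 gene in reverse, 2.56% beside 1.93% and, in the length range, 2.52%.

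Hoxc9, a trunk gene used as a marker of white fat, had 2 HFD peaks in its window, at chr15:102983643-102984597 (score 74.0) and chr15:102984975-102985606 (score 82.15). The ND peak nearest to its window lay 32303 bp away. Hoxd9 and Hoxd10 rested on the same HFD peak, at chr2:74695948-74696751 between both records, which scored 58.8 and stood above 12.9% of the HFD list. For Hoxd9 an ND peak lay 857 bp outside the window, and for Hoxd10 the distance was 5959 bp. Asking for no ND peak within a further 5000 bp left Hoxc9 and Hoxd10 (5.13%, beside 5.35% of protein-coding genes). The Hoxa11 peak in ND, at chr6:52243147-52243798, scored 50.46, above 0.6% of the ND list, and the nearest HFD peak lay 18815 bp from the window. Hoxa11 patterns the forearm and kidney. Hoxd3 and Hoxd4, with a peak in both lists, had a further HFD peak of 93.6 at chr2:74727176-74727813 without a partner in ND or FAD. The shares of genes above are near their backgrounds.

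Of the 16 regions with a peak in both lists, 11 had the higher score in HFD and 5 in ND. This tally has no counterpart here over all regions of the series with a peak in both lists. The 4 regions with the highest HFD scores, chosen by that score, had 288 in HFD and 191 in ND before Hoxa7, 281 and 185 before Hoxb1, 267 and 166 in Hoxb7, and 207 and 155 at Hoxa6. Each of these 4 HFD peaks lay above at least 81.8% of the HFD list. Each ND peak of these regions lay above at least 72.2% of the ND list. The list medians, 100.4 in HFD and 100.85 in ND, also cover peaks without a partner in the other list. Among the 5 with the higher score in ND were the Hoxb3 region chr11:96343593-96344636, with 108 in ND, 56.5 in HFD and 75.7 in FAD, and the second Hoxc4 region (140 in ND and 83.9 in HFD). Values of single libraries are set side by side here, and depth was not available to scale them.

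FAD was compared with HFD, the same diet without folic acid, and with ND. Over all clusters there were 24 FAD peaks for 30 HFD peaks, a ratio of 0.80 (0.45 to 1.42), beside 0.71 for the whole lists and 0.64 for the flanks. Hoxa gave 0.50, Hoxb 0.73, Hoxd 0.57 and Hoxc 1.5. Each interval included 0.71, and that of Hoxc ran from 0.48 to 5.12. The Hoxc cluster held 9 FAD, 6 HFD and 2 ND peaks, which is 7.52 (3.44 to 14.3), 5.01 (1.84 to 10.9) and 1.67 (0.20 to 6.03) per 100 kb. The 500 kb on each side of it held 33 FAD, 55 HFD and 33 ND peaks. FAD peaks covered 5.29% of the cluster and 1.46% of the flanks, while ND peaks covered 0.62% and 1.66%. The FAD to ND ratio of 4.5 had an interval of 0.93 to 42.8, which includes the whole-list ratio of 0.94, and the FAD ratio of cluster to flank was 2.28 (0.96 to 4.87).

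Hoxc6, Hoxc10 and Hoxc11 had a peak in FAD and in neither other list, 7.69% of Hox genes beside 0.909% of protein-coding genes. The same 3 genes made up all Hox genes with a peak in FAD and none in HFD, where the background was 1.39% and, in the length range, 1.79%. With Hoxc9 they were also all 4 genes with a peak in FAD and none in ND (10.3% beside 4.03%, and 5.1% in the length range). These genes are neighbours in 1 cluster and are not independent of each other.

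The FAD peak of Hoxc6, a gene of the thoracic region, lay inside its record at chr15:103010581-103011457 and scored 89.3. The nearest HFD and ND peaks lay 4637 and 4865 bp from the window. The Hoxc10 peak, at chr15:102965494-102965891 and 905 bp before the 5′ end of the record, scored 56.1, with HFD and ND peaks 9744 and 44849 bp from the window. Hoxc10 encodes a factor known to restrain browning of subcutaneous fat. The Hoxc11 peak, at chr15:102957682-102957942, scored 77.75 and spanned 261 bp, and 10% of FAD peaks were narrower than 286 bp. Its nearest HFD and ND peaks lay 24941 and 60046 bp from the window. With none allowed within a further 5000 bp, Hoxc10 and Hoxc11 stayed in FAD and not HFD (5.13% beside 0.726%), and both with Hoxc9 in FAD and not ND (7.69% beside 2.43%).

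Hoxc9 held 3 FAD peaks. At chr15:102977321-102978312, 289 bp inside the record from its 5′ end, the score was 53.2, and at chr15:102978413-102979305 it was 55.8. Both were without a partner in ND or HFD and lay above 3.8% and 7.0% of the FAD list. The third, at chr15:102983364-102984748, scored 136 in FAD and overlapped the HFD peak of 74.0, with the nearest ND peak 33999 bp from the joined region. Hotair, the long non-coding RNA gene between Hoxc12 and Hoxc11, had an FAD peak of 89.7 at chr15:102947033-102947479, and the nearest HFD and ND peaks lay 36163 and 71268 bp away.

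The Hoxc peaks found in FAD only had low scores. All 6 scored below 90 and below the FAD list median of 97.1. With peaks of a score of 100 or more, none of Hoxc6, Hoxc10 and Hoxc11 was marked. Hoxc9 was then the 1 Hox gene in FAD and not HFD, beside 1.57% of protein-coding genes. With lists shortened to equal length by score, the Hoxc counts were 2 ND, 6 HFD and 9 FAD peaks and the same 3 genes were in FAD and not HFD, beside a background of 3.75%. With records alone and no added 2000 bp, Hoxc6 was the 1 gene in FAD and not HFD, beside 1.37%. In bulk tissue, methylation in more cells and more of a cell type that carries it cannot be told apart. Of 8 adipocyte marker genes 4, 7 and 5 had a peak in ND, HFD and FAD, of 6 leukocyte markers 3, 5 and 3, and of 6 epididymis markers 0, 3 and 1, where 64.5%, 71.4% and 61.9% of all protein-coding genes did. The HFD list is the longest, with 135124 peaks against 101532 in ND and 95501 in FAD. Peaks at these genes do not measure expression, and the part of cell make-up in the Hoxc counts was not tested.

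In the reverse direction Hoxa9, Hoxd9 and Hoxd10 had a peak in HFD and none in FAD (7.69% beside 10.9%, and 14.1% in the length range), and Hoxa9 and Hoxa11 had a peak in ND and none in FAD (5.13% beside 6.7%, and 8.66% in the length range). Hoxa9, a gene of blood progenitors and the lower trunk, was an edge case. Its window was reached by the far end of the strong region before Hoxa7 in ND and HFD, and the FAD peak of that region ended 195 bp short of it. With a further 5000 bp required, Hoxd10 alone was left in HFD and not FAD (2.56% beside 6.92%), and Hoxa11 alone in ND and not FAD (2.56% beside 4.03%). Hoxa11 was also the 1 gene in ND and not HFD by that rule (2.56% beside 0.964%).

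Patterns over the 42 joined regions were set beside those of all 161677 regions of the series. Regions in all 3 lists numbered 14 (33.3%, 21.0 to 48.4%, beside 40.3%). Those in HFD only numbered 11 (26.2%, beside 23.5%), in ND only 5 (11.9%, beside 7.88%) and in FAD only 7 (16.7%, 8.32 to 30.6%, beside 6.57%). Of the 7 in FAD only, 6 lay in the Hoxc cluster and 1 in Hoxb3 (score 52.4). No region was in ND and FAD only, with a Wilson upper bound of 8.38%, beside 2.54% of all regions.

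**Figure D3:**
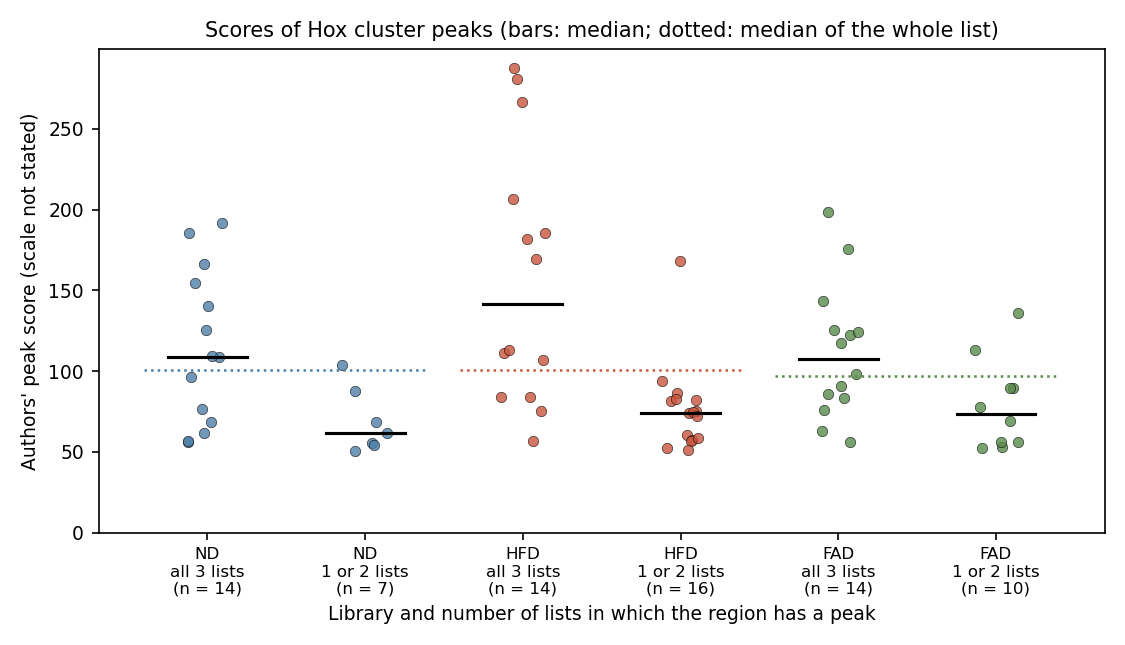
Authors' scores of Hox cluster peaks in each library, for regions found in all 3 lists and in 1 or 2 lists (points: peaks, bars: medians, dotted lines: median of the whole list). Medians of shared regions are 109 in ND, 141 in HFD and 108 in FAD, above the medians of 61.75, 74.3 and 73.4 for the rest.

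Regions found in every list had the higher scores in each library. The same medians over all regions of the series are not given here, so this is not shown to be particular to the Hox clusters. Their median was 109 in ND (n = 14 regions), 141 in HFD and 108 in FAD, against 61.75 (n = 7), 74.3 (n = 16) and 73.4 (n = 10) for the others. All 4 peaks with a score of at least 200, each in HFD, were among the shared regions. The exceptions among unshared regions were chr2:74755891-74756346 in the non-coding RNA gene Haglr beside Hoxd1, with 168 in HFD and 113 in FAD, an ND peak of 104 at chr2:74750368-74751034 in the same gene, and the Hoxc9 peak of 136 in FAD. The region chr2:74747612-74748879, with 82.4 in HFD and 69.0 in FAD, reached into Haglr through its HFD peak only. Its FAD peak ended just before the Haglr record. No region of Haglr was thus common to ND and another list, and the ND peak lay 1488 bp from the nearest HFD peak and 1949 bp from the nearest FAD peak.

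Of 12 long non-coding RNA genes listed for the clusters and matched, 7 had an ND peak within 2000 bp, 6 an HFD peak and 7 an FAD peak, where 49.9%, 60.9% and 47.5% of all 12727 long non-coding RNA records did. Hotair had a peak in FAD only and Hoxa11os in ND only, through the same weak peak as Hoxa11. Of 6 cluster miRNA genes, Mir10b, which lies inside the Hoxd4 and Hoxd3 records, was the 1 with a peak (93.6, HFD only), where 26.7% of all 1228 miRNA records had an ND peak, 34.4% an HFD peak and 25.5% an FAD peak. Evx1 and Evx2, the homeobox genes that flank Hoxa13 and Hoxd13, had none in any list. Of the 6 ParaHox genes, relatives of the Hox genes outside the clusters, 1 carried an ND peak, 2 an HFD peak and 1 an FAD peak, with Cdx1 at 135, 86.2 and 149 and Gsx2 at 92.3 in HFD alone. These shares stand beside 64.5%, 71.4% and 61.9% of all protein-coding genes.

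Partners and regulators of Hox proteins lie in long records, and their counts stand beside 64.5%, 71.4% and 61.9% of all protein-coding genes in ND, HFD and FAD. Of 9 genes of the TALE homeodomain cofactors that bind DNA with Hox proteins, 8 had a peak in every list, and Meis3 had none. Meis1 reached 223.5, 551 and 318 and Pknox1 288, 429 and 304. Of 27 Polycomb genes, 18, 23 and 19 had a peak, with 6 in HFD and not ND (beside 8.81% of all protein-coding genes) and 1, Mtf2, in reverse (beside 1.93%). Jarid2 reached 1435, 1733 and 1240.5 and Cbx2 511, 839 and 324. Of 12 trithorax and insulator genes, 11, 10 and 10 had a peak, among them Dpy30 with 308, 336 and 191. Median record lengths of these lists ran from 26323 to 139224 bp, so that their counts are not comparable with those of the Hox genes.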

How the data were processed

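MeDIP-seq libraries of epididymal fat from male C57BL/6J mice, 1 per diet, were used as the peak lists the authors deposited, and the submitters' processing notes name mm10. Whether a library was 1 animal or a pool, the aligner, the caller's version and settings, any control and the read depth are stated by no source used here. Peak names carry the prefix MACS. The fifth column holds the authors' peak score. The lists held 101532 (ND), 135124 (HFD) and 95501 (FAD) peaks.

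Gene records came from a RefSeq table of GRCm38.p6 (49943 records on 21 chromosomes), which gives no strand or exons. Strand was read from the promoter table, where all genes of a cluster with a window agree (9, 3, 1 and 9 genes in Hoxa to Hoxd), and 5′ ends are ends of records. Of 13 listed cluster RNA genes 12 matched, and a further symbol, 2610035D17Rik, was removed because its record lies outside the clusters. Windows, flanks of 500 kb and overlap of 1 bp were as stated. The split by paralog number was not among the planned comparisons. The members, lists and rules were chosen with earlier results of these data known, and the comparison with genes between the length quartiles, the choice of printed promoters, the search for TGATNNAT, the shares over all long non-coding RNA and miRNA records and the tally of scores in shared regions were added after the values were seen. The text accounts for every Hox gene with a peak and gives in full those that differ between lists, score 200 or more or rank among the 3 highest of a cluster. At most 3 genes of each related list are named by score, beside those that differ. Some genes that this rule would name are not reported here.

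Overlap code gave the count of bedtools 2.31.1 for all 65661 gene and library pairs, and was tested on simulated data. Alternatives were windows of 0 and 5000 bp, equal-length lists, the upper 50% of each list by score, a score of 100 or more, lists without their narrowest 10%, peak midpoints, joining within 500 bp, clusters plus 10000 bp and flanks of 100 kb. Intervals are Wilson, exact Poisson or exact binomial at 95%. The tools were scipy 1.17.1, pandas 2.3.3, numpy 2.4.6 and matplotlib 3.10.9 under Python 3.11.15.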

Additional observations from a re-analysis of the deposited data

How the results depend on the processing

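No paired analysis was possible because there was 1 library per diet. Hox genes with a peak numbered 11, 12 and 12 in ND, HFD and FAD with windows of 0 bp. By the same rule 59.7%, 66.2% and 57.3% of protein-coding genes had a peak. The FAD count was 12 with the 50% of peaks with the highest scores and 12 with a score of 100 or more. Backgrounds for these were 46.1% and 44.7% of protein-coding genes. By direction, windows of 0 bp gave 1 gene in HFD and not FAD, 1 in FAD and not HFD, 2 in FAD and not ND and 1 in ND and not FAD. Backgrounds in that order were 10.3%, 1.37%, 3.86% and 6.27%. Windows of 5000 bp gave 3 in ND and not HFD. The 50% of peaks with the highest scores and the score of 100 or more each gave 1 in FAD and not HFD. Each gave 2 in FAD and not ND. The backgrounds were 1.89% and 1.57% for the former, and 4.79% and 4.07% for the latter. Both kept 3 genes in HFD and not ND and 1 in reverse, but the genes changed. Hoxa2, Hoxc5 and Hoxd8 replaced Hoxc9, Hoxd9 and Hoxd10 (beside 11.0% and 10.9%). Hoxb3 replaced Hoxa11 (beside 2.37% and 2.41%). Of the genes in HFD or ND and not FAD, Hoxa9 alone stayed. Equal-length lists gave 1 in HFD and not ND, 0 in ND and not HFD, 1 in HFD and not FAD and 1 in ND and not FAD. In that order the shares of protein-coding genes were 5.71%, 4.40%, 6.72% and 6.17%. Peak midpoints gave 2 in ND and not HFD and 1 in ND and not FAD. Shares of protein-coding genes are not given here for 5000 bp windows and midpoints, so these counts have no background. Cluster peaks numbered 9, 11 and 10 in ND, HFD and FAD with the 50% of peaks with the highest scores and 9, 11 and 9 with a score of 100 or more. For Hoxc, both gave 1, 1 and 2. Without the narrowest 10% of peaks the Hoxc count in ND was 1. The ratio of cluster to flank stayed within its interval under every alternative run, from 0.687 in HFD to 1.32 in ND. Smaller windows and shorter lists hold fewer peaks by construction, and the cause was not tested otherwise. Read depth and replicate spread are unknown, so weak peaks and missing ones were not separable.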
